A study of Homo sapiens with 8 samples.

Results

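EGR1, EGR2, EGR3, KLF2, KLF6, KLF10, IER2, IER3, IER5 and SRF are 10 of the 20090 protein-coding genes examined, and all of them belong to or act in the immediate early response. They were chosen by their H3K4me3 ratios of MV-treated over mock-treated cells, because EGR3 and KLF2 had the highest ratios among early genes, so the H3K4me3 ratios below describe the genes and test nothing. The cells were HCT8, a human ileocecal colorectal adenocarcinoma line. Cultures were exposed for 5 h to membrane vesicles (MVs), the small membrane-bound particles that bacteria shed, from *E. coli* MC1061, a laboratory strain, or from *V. cholerae* C6706, a pathogenic strain. Mock-treated cells are labelled non treated and, by the study's methods, received the buffer of the vesicle preparation. Of 8 samples, 6 peak lists were used, 1 for each of 3 treatments in H3K4me3 ChIP sequencing and in FAIRE sequencing, and 2 further samples, the inputs, were not analysed here. With 1 library per treatment and assay, no difference below has a replicate check or a test.

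Immediate early genes are switched on by growth factors, stress and microbial products without new protein synthesis. Serum response factor, encoded by SRF, sits with ternary complex factors on CArG boxes in the promoters of many of them and receives the MAP kinase signal. EGR proteins are zinc finger activators that pass the signal on to later genes, KLF proteins are zinc finger factors that bind GC-rich boxes, and the IER genes are small early response genes with regulatory products of several kinds. Trimethylation of lysine 4 on histone H3 (H3K4me3) marks promoters that are active or ready for activity. FAIRE enriches DNA that is free of nucleosomes and so measures chromatin accessibility.

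The value of a gene is the normalized tag count of all called peaks within 1000 bp of any of its start sites, in tags per 10000000 tags of the library. The H3K4me3 libraries held 3463875 tags in mock, 10528314 for *E. coli* vesicles and 13011839 for *V. cholerae* vesicles, which is also the order of most H3K4me3 values below, and the weakest listed peak held 4, 8 and 9 tags. Called peaks took up between 38.6% and 56.1% of the H3K4me3 tags. The FAIRE libraries held between 7888670 and 14474665 tags, and that of *E. coli* vesicles stood apart with 37.3% of its tags in peaks, against 7.12% in mock and 13.9% for *V. cholerae* vesicles. Depth and the share of tags in peaks thus differed along with treatment, and their part in the results was not tested. Of 12 markers of intestinal epithelium and colon carcinoma, between 9 and 10 had an H3K4me3 peak in each library, while KRT20 and CEACAM5 had none. None of 6 blood markers and none of 3 endothelial markers found in the annotation had a peak, and of 6 fibroblast markers only COL1A1 had one, after either MV treatment. Intervals are exact at the 95% level, Poisson for levels and Clopper-Pearson for ratios. They cover counting error only, and since PCR copies are not independent the true error is larger.

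Promoter sequences were read from RefSeq (GRCh38.p14), from 250 bases before to 50 after a start site, for the 7 of 10 genes that matched, whereas EGR3, KLF10 and IER3 had no entry. The stretches below are shown because the first, second and last hold CArG boxes, the binding sequence of serum response factor, and because those of EGR1, EGR2 and KLF2 lay outside every mock peak. Each ends on the base before the start site and reads 5′ to 3′ along the gene. Capitals mark CArG boxes in EGR1, EGR2 and SRF and the GC box CCGCCC or its reverse complement in KLF2.
EGR1: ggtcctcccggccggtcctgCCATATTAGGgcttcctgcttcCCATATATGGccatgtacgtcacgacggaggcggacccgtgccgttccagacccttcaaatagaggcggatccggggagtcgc
EGR2: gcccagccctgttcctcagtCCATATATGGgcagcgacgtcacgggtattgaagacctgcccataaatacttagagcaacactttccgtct
KLF2: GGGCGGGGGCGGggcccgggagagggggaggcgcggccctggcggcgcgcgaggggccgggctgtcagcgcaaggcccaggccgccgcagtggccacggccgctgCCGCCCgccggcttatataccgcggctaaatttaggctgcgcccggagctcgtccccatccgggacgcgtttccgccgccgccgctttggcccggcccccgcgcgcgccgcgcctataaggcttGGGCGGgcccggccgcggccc
SRF: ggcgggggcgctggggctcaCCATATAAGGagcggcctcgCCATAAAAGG

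These stretches are chr5:138465354-138465478 on the plus strand for EGR1, chr10:62816367-62816457 on the minus strand for EGR2, chr19:16324576-16324825 on the plus strand for KLF2 and chr6:43171219-43171268 on the plus strand for SRF, all in GRCh38.p14. Each matched GRCh37, the build of the peak lists, exactly and at 1 place, at chr5:137801043-137801167, chr10:64576127-64576217, chr19:16435387-16435636 and chr6:43138957-43139006. The stretches of EGR1, EGR2 and KLF2 lay in no mock peak of H3K4me3 or FAIRE and entirely inside an H3K4me3 peak after either MV treatment. That of SRF was covered in all 6 libraries. In FAIRE with *E. coli* vesicles all 4 stretches were covered, and with *V. cholerae* vesicles EGR1 was covered whole, EGR2 in part and KLF2 not at all.

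CArG boxes were found in 3 of the 7 genes with a promoter entry and in 1.29% of 35116 promoters, searched on both strands with overlaps allowed. The 7 genes have 10 promoters between them, and a gene was counted if any of its promoters matched. Shares of genes here are therefore not of the same unit as shares of promoters. EGR1 had boxes starting 105 and 83 bases before its start site, EGR2 had 1 at 71 bases, and SRF had them at 30 and 10 bases. The GC box CCGCCC was in 5 of the 7 genes and in 45% of promoters, and 2 directly adjacent copies lie at the distal end of the KLF2 stretch. No match to the ETS motif CCGGAAGT, the cAMP response element TGACGTCA or the EGR motif GCGTGGGCG was found in the 7 genes, against 4.14%, 1.85% and 0.795% of promoters. A match is a description of the sequence and does not show binding, and an absent match says only that these letters are not in the window.

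In H3K4me3, each of the 10 genes had a peak in all 3 libraries. Relative to all tags of the library, the value was lowest in mock, higher with *E. coli* vesicles and highest with *V. cholerae* vesicles at every gene. Relative to the tags that fall in peaks, this order did not hold at EGR2 (*E. coli* vesicles against mock) and KLF6 (between the vesicles). With the median log2 ratio of genes of like GC content subtracted, *V. cholerae* vesicles were below *E. coli* vesicles at KLF10 (-0.08), IER2 (-0.07), IER3 (-0.18) and SRF (-0.09). On that scale *V. cholerae* vesicles were above at EGR1, EGR2, EGR3, KLF2 and IER5, and KLF6 was level. Against mock, 4 of 10 genes were at least 2-fold higher with *E. coli* vesicles (14.9% of 12087 genes with a peak in both libraries) and 5 of 10 with *V. cholerae* vesicles (27.7% of 12095 genes). The genes next to that threshold with *E. coli* vesicles were SRF, 2.04-fold higher, and IER5, 1.99-fold higher. With *V. cholerae* vesicles, KLF10 at 1.96-fold and EGR2 at 1.92-fold lay just below it. KLF10 passed it in both comparisons, at log2 ratios of 1.16 and 1.33, with a window of 500 bp or with the 5′ start site alone. Over the 10 genes the log2 ratio had a median of 0.90 with *E. coli* vesicles and of 1.10 with *V. cholerae* vesicles, where that of all genes was 0.52 and 0.63. Both comparisons use the same mock library. Intervals above a ratio of 1 were found for 9 and 10 of the genes, and for 74.7% and 75.5% of all genes. Between the MVs, 0 of 10 genes were 2-fold higher with *V. cholerae* vesicles (1.53% of genes) and 8 of 10 were higher beyond counting error (37.4% of genes), at a median log2 ratio of 0.25 against 0.11.

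**Figure D1:**
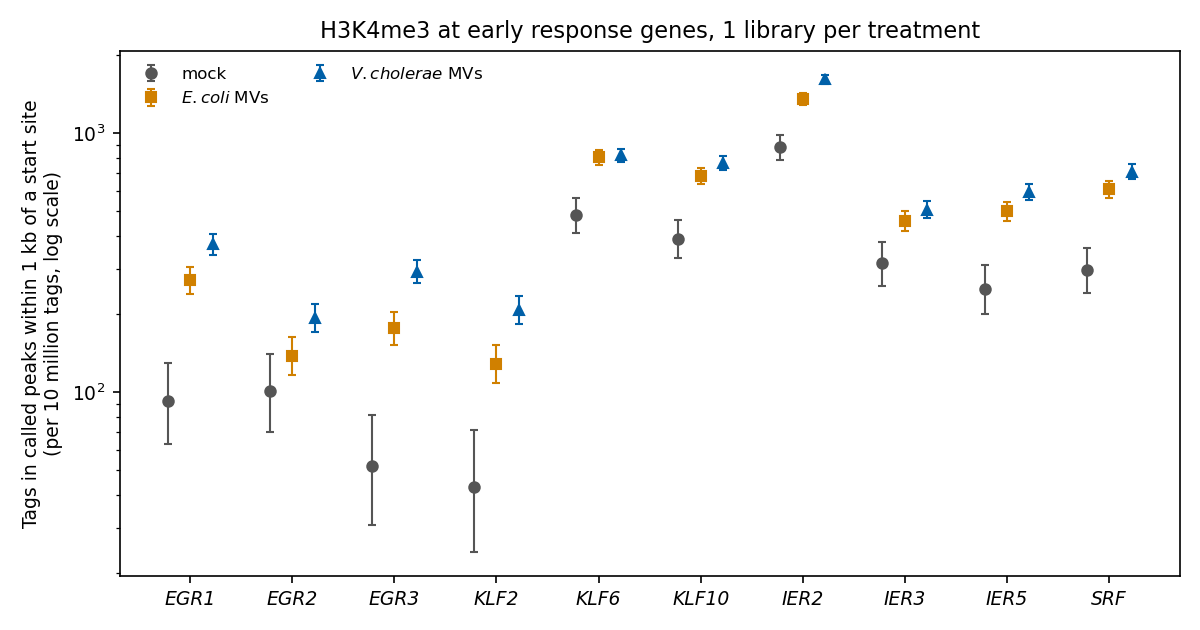
H3K4me3 tags in called peaks within 1000 bp of a start site (tags per 10000000 tags, log scale) for each gene and treatment, 1 library each, with exact Poisson 95% intervals. On this scale the mock point is lowest and the *V. cholerae* MV point highest at every gene, EGR2 and KLF6 changing relative to the tags in peaks, and KLF2 and EGR3 have the lowest mock values at 43.3 and 52. After GC subtraction the order of the MVs turns at KLF10, IER2, IER3 and SRF.

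The EGR genes had small mock peaks. EGR1 (chr5:137801168-137804992, GRCh37, plus strand), the serum-inducible founder of the family, had a normalized tag count of 92.4 in mock (32 tags), 270.7 with *E. coli* vesicles (285 tags) and 372.7 with *V. cholerae* vesicles (485 tags). All 3 values lay apart beyond counting error, with log2 ratios against mock of 1.55 (1.02 to 2.13) and 2.01 (1.50 to 2.58). EGR2 (chr10:64571756-64578927, minus strand), known for its role in hindbrain and myelin formation, had 101, 138.7 and 193.7. Here mock and *E. coli* vesicles did not differ beyond counting error (log2 ratio 0.46, interval -0.08 to 1.03), whereas the *V. cholerae* MV value was above both, at 0.94 (0.42 to 1.49) against mock. Relative to the tags that fall in peaks, the *E. coli* MV ratio of EGR2 was -0.03.

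EGR3 (chr8:22545172-22550993, minus strand), a close relative of EGR1 that is also induced on lymphocyte activation, had 52 in mock (18 tags), 176.7 with *E. coli* vesicles (186 tags) and 292 with *V. cholerae* vesicles (380 tags). Its log2 ratios of 1.77 (1.07 to 2.55) and 2.49 (1.81 to 3.26) were the highest of the 10 genes, 3.4-fold and 5.62-fold. They rest on how the mock peaks were cut. The mock library had a second peak of 57.7 normalized tags (20 tags) from 2973 to 1428 bp upstream of the start site, outside the 1000 bp window, and in both MV libraries 1 long peak across the start site overlaps it. With overlapping peaks of the 3 libraries joined into regions, an alternative added after the data were seen, mock EGR3 held 109.7, and the ratios were 1.61-fold (log2 0.69, 0.18 to 1.23) and 2.66-fold (log2 1.41, 0.93 to 1.93). Its place among all genes changed from percentile 97.9 to 67.7 with *E. coli* vesicles and from 98.9 to 88.7 with *V. cholerae* vesicles.

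Joining regions also added a mock peak of 17.3 normalized tags to EGR1, whose log2 ratios became 1.30 and 1.76, and no H3K4me3 peak to any of the other 8 genes. Over joined regions, 3 of 10 genes were at least 2-fold higher with *E. coli* vesicles and 5 of 10 with *V. cholerae* vesicles, where 14.1% and 27% of all genes were. KLF2 then had the highest ratio of the 10 in both comparisons.

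KLF2 (chr19:16435637-16439496, plus strand), a factor of endothelial quiescence and T cell trafficking that also responds early to stimuli, had 43.3 in mock (15 tags), 129.2 with *E. coli* vesicles (136 tags) and 208.3 with *V. cholerae* vesicles (271 tags). It was 2.98-fold (log2 1.58, 0.80 to 2.45) and 4.81-fold (log2 2.27, 1.52 to 3.12) higher than mock, and the mock level rests on few tags. KLF6 (chr10:3818188-3827473, minus strand), a broadly expressed member with tumour suppressor functions, had 482.1, 809.2 and 822.4. The MV values of KLF6 did not differ beyond counting error, and both were above mock, by log2 0.75 (0.51 to 1.00) and 0.77 (0.53 to 1.01). KLF10 (chr8:103661012-103667953, minus strand), first described as a gene induced early by TGF-beta, had 392.6, 683.9 and 767.8. Its log2 ratios were 0.80 (0.53 to 1.08) and 0.97 (0.71 to 1.24), and all neighbouring values lay apart.

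IER2 (chr19:13261225-13265725, plus strand), a nuclear early response protein, had the broadest mock peak of the group and values of 883.4, 1355 and 1615, with log2 ratios of 0.62 (0.44 to 0.80) and 0.87 (0.70 to 1.05). Its peaks also lie within 1000 bp of a start site of STX10, so tags of the genes cannot be told apart. IER3 (chr6:30710976-30712325, minus strand), a regulator of apoptosis and of NF-kappaB and MAP kinase signalling, had 314.7, 459.7 and 507.2, with log2 ratios of 0.55 (0.24 to 0.86) and 0.69 (0.39 to 0.99), and its peaks are shared in the same way with FLOT1. The MV values of IER3 lay within counting error of each other. IER5 (chr1:181057836-181062036, plus strand), a gene of a single exon that is linked to the heat shock response, had 251.2, 499.6 and 593.3 and log2 ratios of 0.99 (0.66 to 1.34) and 1.24 (0.92 to 1.58). Of the IER genes, IER5 thus had the highest ratios and IER3 the lowest. Genes that are not protein-coding share H3K4me3 peaks in the same way at all of the group but EGR2 and SRF. KLF2-DT does so at KLF2, and tags of such genes cannot be told apart either.

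SRF (chr6:43139007-43149244, plus strand) encodes the factor that binds CArG boxes, found above, among the 7 genes searched, only in EGR1, EGR2 and SRF. The gene had 297.4 in mock, 606.9 with *E. coli* vesicles and 711.7 with *V. cholerae* vesicles. The log2 ratios were 1.03 (0.73 to 1.34) and 1.26 (0.96 to 1.57), and the MV values differed by 0.23 (0.08 to 0.38). Relative to all tags of the library, the 3 libraries therefore kept one order at SRF, each apart from the next beyond counting error. After GC subtraction, *V. cholerae* vesicles lay below *E. coli* vesicles at SRF, at -0.09.

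A wider peak and a denser one both add tags, and the genes differed in which was seen. The called span of EGR1 was 1219 bp in mock, 2914 bp with *E. coli* vesicles and 3438 bp with *V. cholerae* vesicles. That of KLF2 was 671, 1825 and 2003 bp, and that of EGR3 was 1469, 3745 and 3763 bp, or 3014 bp in mock with the second peak included. Within the window these genes had mostly wider peaks, since tags per kb of called span changed less, from 75.8 to 92.9 and 108 in EGR1, from 64.5 to 70.8 and 104 in KLF2 and from 35.4 to 47.2 and 77.6 in EGR3. With the second mock peak included, EGR3 had span ratios of only 1.24 and 1.25, and its log2 ratio per kb was 0.37 and 1.09, so its gain was then mainly in density. IER5 was mainly denser in the window itself. Its span was 3314, 3738 and 3099 bp, narrower with *V. cholerae* vesicles than in mock, while tags per kb were 75.8, 134 and 191.

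SRF and IER2 were also mainly denser, with tags per kb of 109, 185 and 218 in SRF, over spans of 2717, 3287 and 3268 bp, and of 151, 213 and 260 in IER2, over 5863, 6362 and 6206 bp. KLF6 had 139, 158 and 151 tags per kb over 3480, 5120 and 5464 bp. EGR2 was wider without being denser, with 1289, 2161 and 2524 bp and 78.4, 64.2 and 76.7 tags per kb, so that its log2 ratio per kb was -0.29 with *E. coli* vesicles and -0.03 with *V. cholerae* vesicles. KLF10 and IER3 lay between, at 112, 141 and 168 and at 113, 121 and 140 tags per kb. Peaks were wider than in mock at 10 of 10 genes with *E. coli* vesicles and 9 of 10 with *V. cholerae* vesicles, as at 87.4% and 86.2% of all genes. The median span ratio was 1.42 and 1.43, against 1.19 in both comparisons over all genes. Over joined regions it was 1.37 and 1.3.

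**Figure D2:**
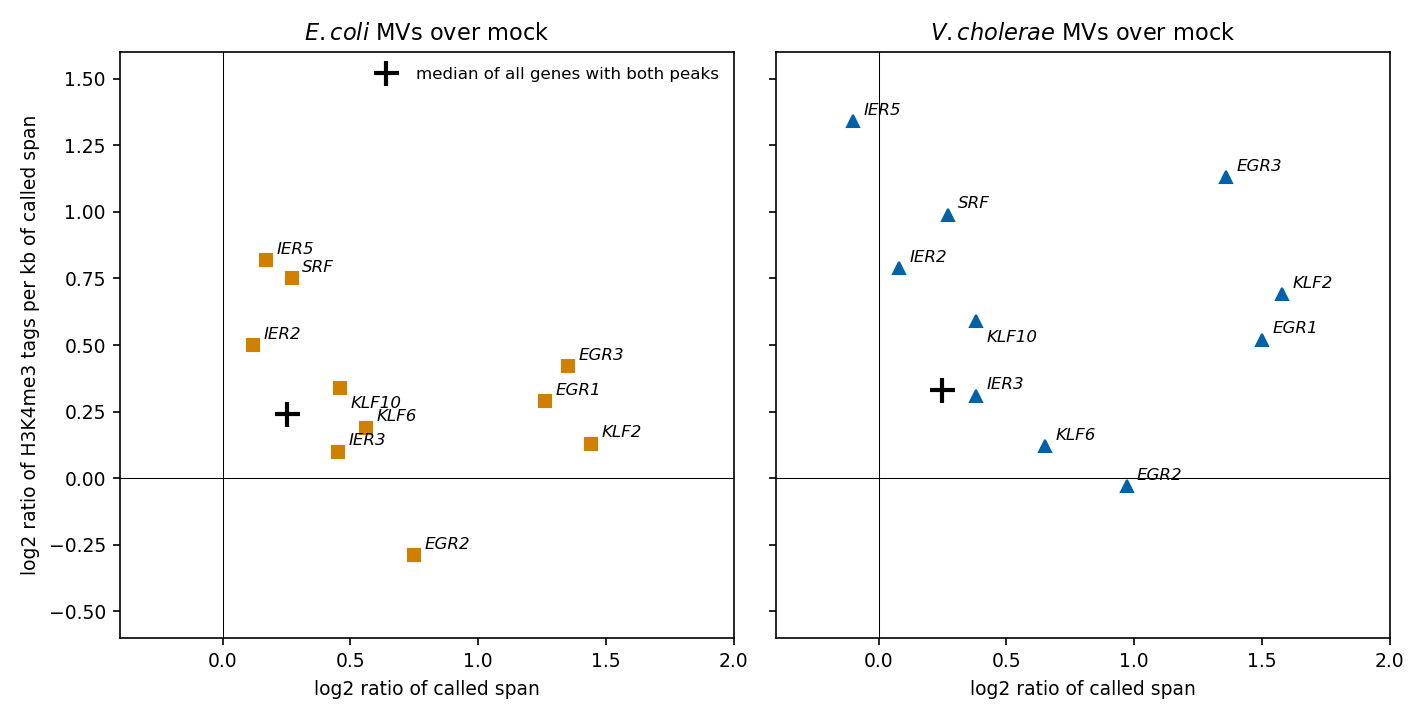
Log2 ratio of called H3K4me3 span (x) against log2 ratio of tags per kb of that span (y), over mock, for each gene, with *E. coli* vesicles on the left and *V. cholerae* vesicles on the right. EGR1, EGR3 and KLF2 lie far to the right, EGR3 by its window value alone, IER5 and SRF lie high with little change in span, and EGR2 is below 0 on the y axis in both panels. The cross is the median of all genes with a peak in both libraries.

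Per kb of span, levels can be set side by side between genes. IER2 had the densest H3K4me3 in each library. EGR3 had the least in mock and with *E. coli* vesicles, and EGR2 had the least with *V. cholerae* vesicles, where it and EGR3 were within counting error. In mock, no gene differed beyond counting error from the next lower one. Among all genes with a peak in the library, the density of EGR3 was at percentile 1.74 in mock and 15.6 with *V. cholerae* vesicles, that of IER5 at 19.2 and 70.6, and that of IER2 at 66 and 98.5.

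The edges of the peaks show where the span was gained. At EGR1 the peak ended 702 bp upstream of the main start site in mock and reached 839 bp and 1486 bp downstream with *E. coli* and *V. cholerae* vesicles, while its upstream edge lay within 154 bp of the mock edge. At EGR2 the mock peak ended 303 bp upstream of the main start site and the MV peaks 441 and 388 bp downstream. The mock peak of KLF2 began 109 bp downstream, inside the gene, and the MV peaks began 813 and 703 bp upstream. The main start site was therefore inside a peak with both MVs and not in mock at 3 of 10 genes (8.99% of 12070 genes with a peak in all 3 libraries), EGR1, EGR2 and KLF2. At EGR1 a separate mock peak of 6 tags lay from 1146 to 1646 bp downstream.

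At EGR3 the gain was upstream. The peak extended 2991 and 2843 bp before the start site with the MVs, against 636 bp in mock, over the stretch where the second mock peak lies. IER5 retreated on the same side, by 80 bp with *E. coli* vesicles and by 701 bp with *V. cholerae* vesicles, and reached 504 and 486 bp further downstream. Over the 10 genes, the median extension beyond the mock edge was 178 and 239.5 bp upstream and 467 and 503 bp downstream. Over all genes it was 154 and 170 bp upstream and 184 and 183 bp downstream.

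**Figure D3:**
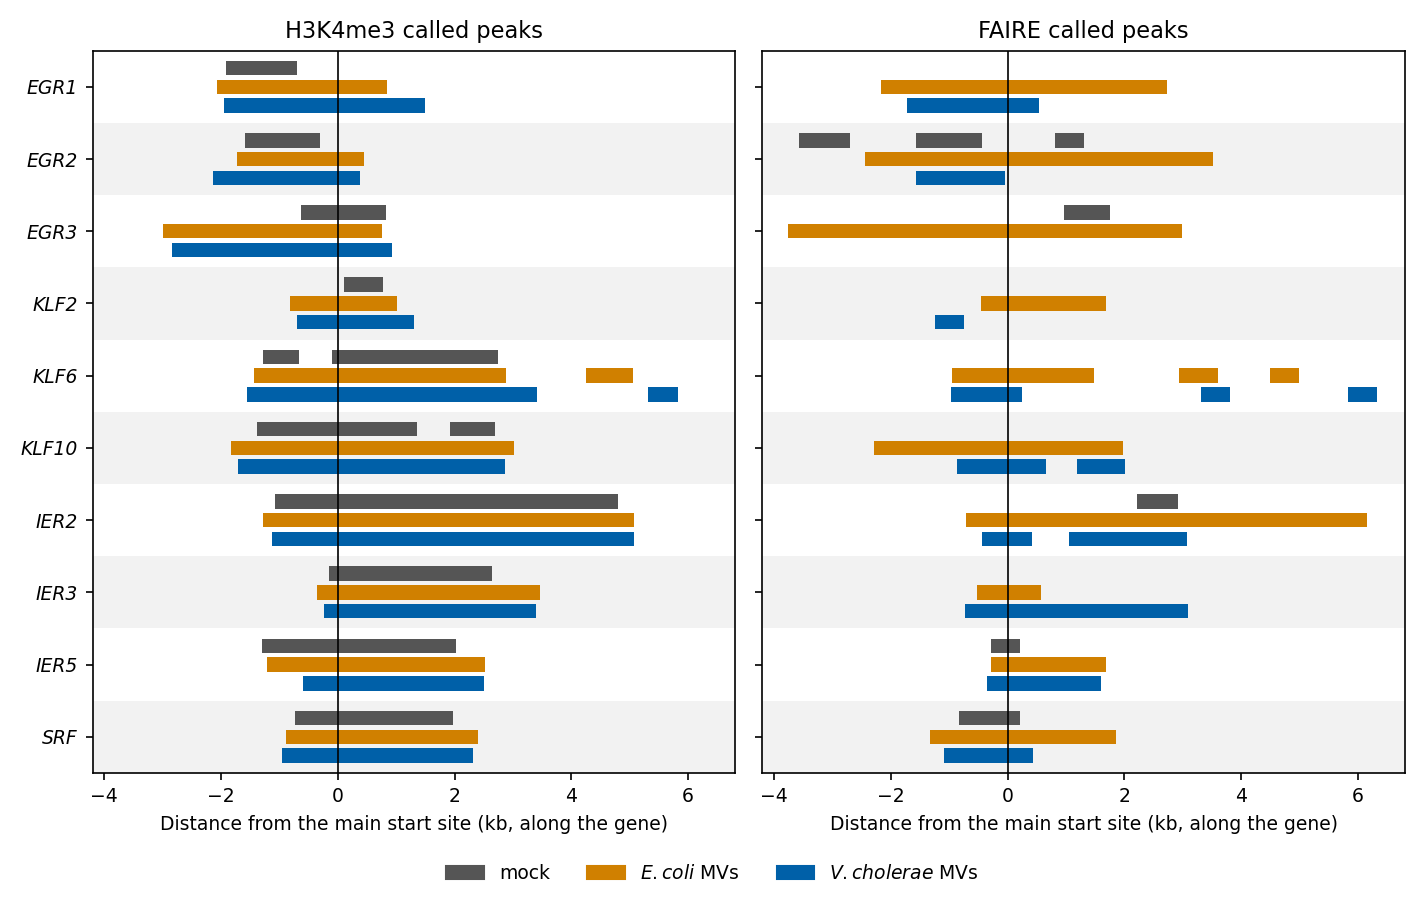
Called peaks of H3K4me3 (left) and FAIRE (right) that lie within 1000 bp of a start site, by distance from the main start site in kb along the gene, for each of the 3 treatments. The mock H3K4me3 peaks of EGR1, EGR2 and KLF2 miss the vertical line at the start site, and the MV peaks cross it.

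Against all genes and within the window, EGR3, KLF2 and EGR1 lay near the top of the H3K4me3 ratios. Their percentiles were 97.9, 96.6 and 96.4 with *E. coli* vesicles and 98.9, 98.2 and 96.9 with *V. cholerae* vesicles. The other 7 genes lay between 43.9, for EGR2, and 86.4, for SRF, in the first comparison and between 53.8, for IER3, and 83.3, for SRF, in the second. Over joined regions EGR3 lay lower, at 67.7 and 88.7. The ratios behind these places also varied with GC content, and its part in them was not tested. Ratios were higher at GC-rich promoters, with a median log2 ratio over mock of 0.16 in the lowest of 10 equal GC classes and 1.15 in the highest for *E. coli* vesicles, and of -0.02 and 1.55 for *V. cholerae* vesicles. The mock peaks of the 10 genes had a median GC content of 62.2%, against 54.9% over 12070 genes.

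With the median of the genes in the same GC class subtracted, the log2 ratios were 0.89 and 1.28 for EGR3, 0.67 and 0.80 for EGR1 and 0.43 and 0.72 for KLF2, whose mock peak at 76% GC falls in the highest class. They were below 0 for IER2 (-0.26 and -0.34) and IER3 (-0.33 and -0.52), for EGR2 with *E. coli* vesicles (-0.17) and for KLF10 with *V. cholerae* vesicles (-0.01). KLF6, at 51.6% GC, stayed at 0.35 and 0.34. No gene of the group reached 2-fold on this scale with *E. coli* vesicles, and EGR3 alone did, by its window value, with *V. cholerae* vesicles. The group was also short, at a median gene length of 5162 bp and 2 exons against 33962 bp and 9 exons, and 18.4% of the 12070 genes were no longer than its longest member.

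**Figure D4:**
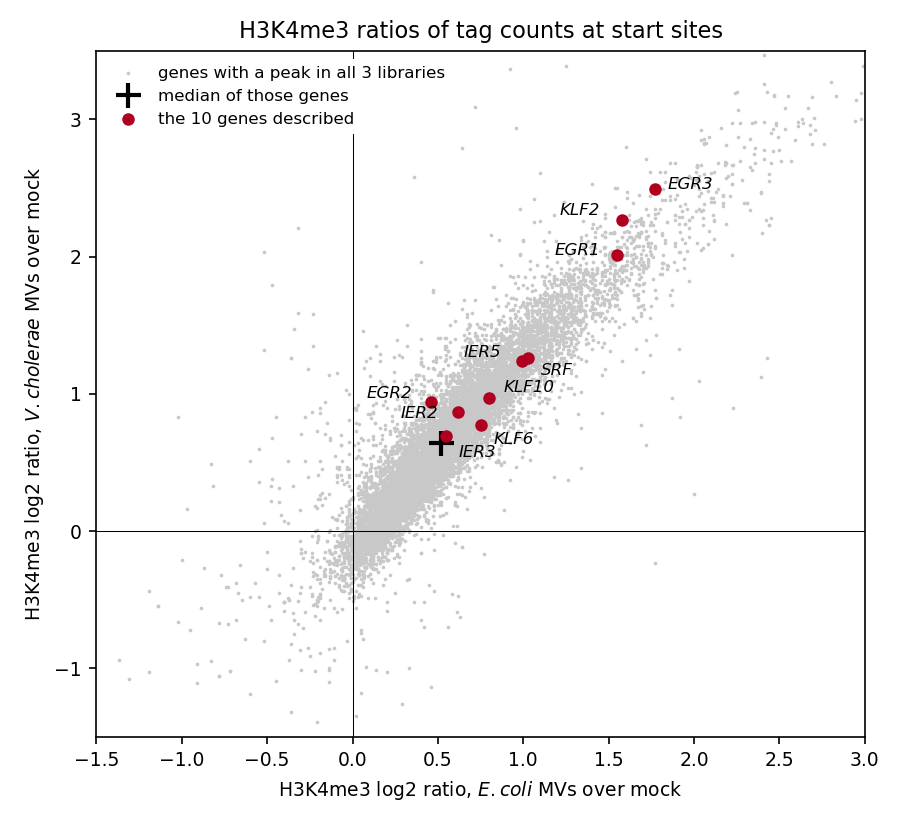
H3K4me3 log2 ratio over mock with *E. coli* vesicles (x) against that with *V. cholerae* vesicles (y) for 12070 genes with a peak in all 3 libraries, of which 31 lie outside the axes, with the 10 genes in red and the median of all genes as a cross. Both axes share the mock library. EGR3, by its window value, KLF2 and EGR1 lie at the upper right, and IER3 lies close to the median.

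Genes whose pair of H3K4me3 ratios lay nearest to that of EGR3, among 3842 genes of similar level, were CAPN5 and OTUB2, at log2 distances of 0.044 and 0.045. Those nearest to KLF2, among 2334 genes, were ST6GALNAC2 and CYP26B1, at 0.069 and 0.093. The likeness rests on 2 ratios from 3 libraries. For EGR3 these are the window ratios, which were lower over joined regions. All of these distances are small beside the counting intervals of EGR3 and KLF2.

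The signalling partners of these genes were counted from a list of 27, which holds ternary complex factors, MRTF and NAB cofactors, further EGR, KLF and IER genes, and the MAP kinase and RSK chain. Of 25 with a peak in all 3 H3K4me3 libraries, 4 were at least 2-fold higher with *E. coli* vesicles (14.9% of all genes) and 11 with *V. cholerae* vesicles (27.7% of all genes), so the first count is close to the share of all genes. The median log2 ratios were 0.65 and 0.76, against 0.52 and 0.63. Higher values beyond counting error were found for 23 and 22 of them (74.7% and 75.5% of all genes), and lower ones for 0 and 1. IER5L, a relative of IER5, had the highest ratios, 1.73 (1.41 to 2.06) and 1.98 (1.66 to 2.30). Next came KLF13 with *E. coli* vesicles, at 1.33, and KLF16 with *V. cholerae* vesicles, at 1.85. The lowest were KLF5, a factor of proliferating intestinal epithelium, at -0.01 and -0.31, and ELK4, a ternary complex factor, at 0.25 and 0.14.

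A list of 8 AP-1 genes, with ATF3 among them, another class of early genes, gave medians of 0.85 and 1.23, close to the 0.90 and 1.10 of the EGR, KLF, IER and SRF group. All 8 were at least 2-fold higher with *V. cholerae* vesicles (27.7% of all genes) and 1 with *E. coli* vesicles (14.9% of all genes, close to that share), against 5 and 4 of the 10. Between the MVs their median was 0.34, against 0.25. Whether the lists differ was not tested.

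FAIRE played no part in the choice of the genes. In mock, 5 of 10 had a FAIRE peak within 1000 bp of a start site (53.6% of 12070 genes), all 10 did with *E. coli* vesicles (98.1%) and 9 did with *V. cholerae* vesicles (85.8%). A peak with both MVs and none in mock was present at 5 of 10 genes (36% of genes), EGR1, KLF2, KLF6, KLF10 and IER3. The shares in the single libraries are close to those of all genes. The count for both MVs and not mock was above its share of all genes, and whether it differs was not tested. Over joined regions KLF10 also had a mock peak. The value was highest with *E. coli* vesicles, in the library that stood apart, at 9 of the 10 genes and at IER3 too once regions were joined, although relative to the tags that fall in peaks mock was higher at EGR2 and *V. cholerae* vesicles at IER3 and IER5. A list of called peaks gives no upper limit where no peak is listed.

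**Figure D5:**
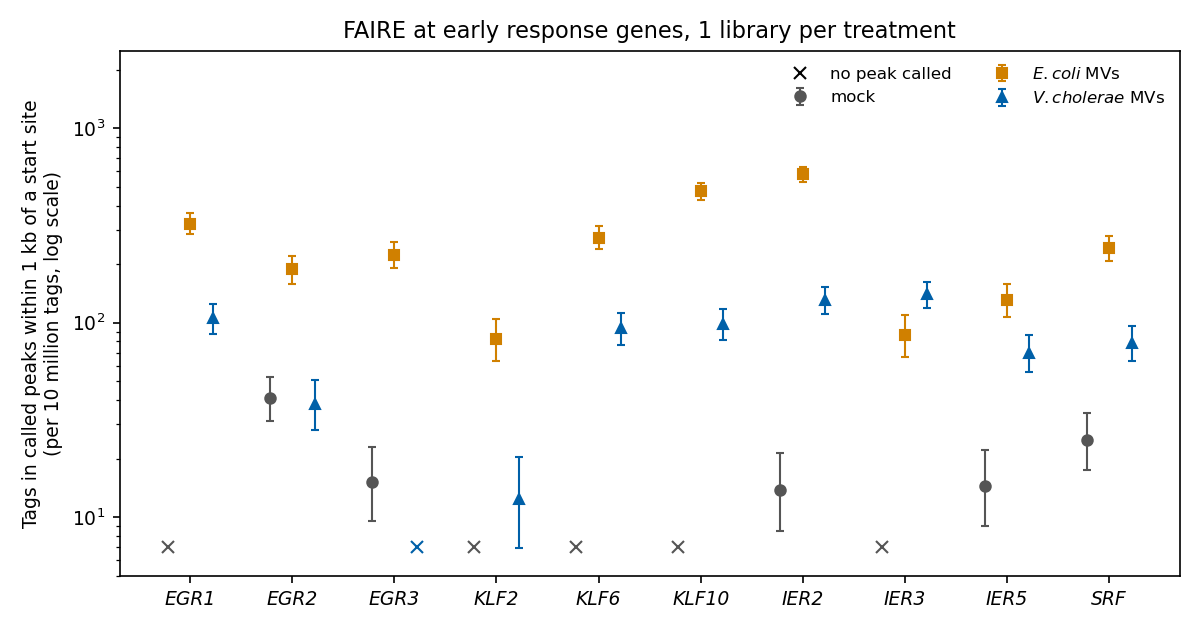
FAIRE tags in called peaks within 1000 bp of a start site (tags per 10000000 tags, log scale) for each gene and treatment, 1 library each, with exact Poisson 95% intervals and crosses where no peak was called. *E. coli* vesicles give the highest point everywhere but at IER3, where the order turns over joined regions, while EGR2 and IER5 change relative to the tags in peaks, and 5 genes have no mock peak.

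At the EGR genes, EGR1 had no mock FAIRE peak, 323.2 with *E. coli* vesicles and 105.2 with *V. cholerae* vesicles. EGR2 had 40.8 in mock, in 3 peaks of which none covers the main start site, 187.6 with *E. coli* vesicles in 1 peak of 5960 bp, and 38.1 with *V. cholerae* vesicles. Mock and *V. cholerae* vesicles did not differ beyond counting error at EGR2 (log2 ratio -0.10, -0.69 to 0.48), and *E. coli* vesicles were higher by 2.20 (1.76 to 2.66), or lower at -0.19 relative to the tags in peaks and at -0.70 after GC subtraction. EGR3 had 15.2 in mock, in a peak between 958 and 1745 bp downstream of the start site, 223.1 with *E. coli* vesicles and no peak in the window with *V. cholerae* vesicles. Over joined regions EGR3 had 28.3, 223.1 and 17.4, as mock and *V. cholerae* vesicles each had a peak around 2 kb upstream, and those libraries lay within counting error of each other (log2 -0.70, -1.54 to 0.09). The gene with the highest H3K4me3 ratio within the window thus had no FAIRE value above mock with *V. cholerae* vesicles.

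KLF2 had no mock peak, 82.4 with *E. coli* vesicles and 12.4 with *V. cholerae* vesicles, the latter in 15 tags between 1246 and 746 bp upstream and outside the H3K4me3 peak. KLF6 had no mock peak and values of 273.8 and 93.54. KLF10 had none in the window and 472.8 and 98.6, and over joined regions its mock value of 11.7 gave log2 ratios of 5.33 (4.63 to 6.13) with *E. coli* vesicles and 3.25 (2.52 to 4.07) with *V. cholerae* vesicles, at percentiles 98.5 and 96.4. All KLF genes were lower with *V. cholerae* than with *E. coli* vesicles, by log2 ratios of -2.73, -1.55 and -2.26. Of all genes with both peaks, 10926 of 12109 were lower beyond counting error, at a median of -1.59. Relative to the tags in peaks, the KLF ratios were -1.31, -0.13 and -0.84. At KLF2 the peaks of the MV libraries do not overlap, and with a window of 2 kb its ratio was -1.78.

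IER2 had the strongest FAIRE gain of the genes with a mock peak in the window, with 13.8 in mock, 578 with *E. coli* vesicles and 130 with *V. cholerae* vesicles. The log2 ratios were 5.39 (4.74 to 6.11) and 3.23 (2.56 to 3.98), at percentiles 98.1 and 96.3 of all genes with both peaks. The mock peak, of 20 tags, lay 2217 to 2920 bp downstream of the main start site, and both MV libraries had a peak over the start site itself. With a window of 500 bp, or with the start site at the 5′ end alone, IER2 had no ratio against mock. FAIRE peaks of IER2 also lie within 1000 bp of a start site of STX10, and those of IER3 near FLOT1, so tags of these genes cannot be told apart. After subtraction of the median of the same GC class, IER2 had 2.12 and 1.91.

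IER3 had no mock peak, 86.2 with *E. coli* vesicles and 139.9 with *V. cholerae* vesicles, and was the 1 gene of the group with more tags in the latter, by a log2 ratio of 0.70 (0.28 to 1.13). That direction also depends on how peaks were cut. The *E. coli* MV library had a further peak of 200.3 normalized tags from 1074 to 3344 bp downstream of the start site, which the single *V. cholerae* MV peak of 3826 bp overlaps. With regions joined, the values were 286.5 and 139.9 and the log2 ratio was -1.03 (-1.33 to -0.74), as it was with a window of 2 kb. Per kb of span the ratio was -1.10.

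IER5 had 14.5, 130.6 and 69.6, in peaks that all cover the start site, with log2 ratios against mock of 3.17 (2.48 to 3.92) and 2.26 (1.56 to 3.03). SRF had 24.9, 240.9 and 78.7, with 3.28 (2.76 to 3.83) and 1.66 (1.09 to 2.26). Mock was lowest and *E. coli* vesicles highest in both genes, each library apart from the next, although *V. cholerae* vesicles were above *E. coli* vesicles at IER5 relative to the tags in peaks and at both genes after GC subtraction.

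Of the 5 genes with a FAIRE peak in mock and with *E. coli* vesicles, all 5 were at least 2-fold higher with the MVs (94.4% of 7990 genes), at a median log2 ratio of 3.28 against 3.07 over all genes. With *V. cholerae* vesicles 3 of 4 were (63.7% of 7090 genes), at 1.96 against 1.38. Between the MVs 0 of 9 were 2-fold higher with *V. cholerae* vesicles (0.149% of genes), and the median was -1.62 against -1.59. Relating counts to the tags that fall in peaks, not to the whole library, moves every FAIRE log2 ratio by -2.39, -0.97 and 1.42 in these 3 comparisons, so their size rests on the scale, and IER5 was then higher with *V. cholerae* than with *E. coli* vesicles, at 0.52 in place of -0.91. The direction at EGR2 between mock and *V. cholerae* vesicles also varied with the setting, at -1.31 after GC subtraction, -1.06 relative to the tags in peaks, 0.26 over joined regions, 0.62 per kb of span and 1.03 over peaks shared by all 3 libraries. The same change moves H3K4me3 ratios by -0.48, -0.54 and -0.06.

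FAIRE and H3K4me3 peaks overlapped at most genes. With *V. cholerae* vesicles the FAIRE span lay entirely inside H3K4me3 peaks at EGR1, EGR2, KLF10, IER2 and IER5, and 91.4% of it did at SRF. With *E. coli* vesicles the share ran from 36.3% at EGR2 to 100% at IER5, since the FAIRE peaks were wider, up to 6869 bp at IER2. KLF2 with *V. cholerae* vesicles and EGR3 in mock were the cases with 0 bp shared.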

How the data were processed

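H3K4me3 ChIP sequencing and FAIRE sequencing were measured in HCT8 cells, with 1 library per treatment and assay. Per the file headers and the submitters' processing notes, the authors aligned reads to hg19 and called peaks in each library with HOMER 4.7.2 in histone mode against an input library. The settings were a minimum distance between peaks of 1000 bp, a 4-fold excess over input and a Poisson p cutoff of 0.0001. Edges of listed peaks can lie closer than that distance, as in mock H3K4me3 at KLF6 and KLF10. The notes list Bowtie 1.1.2 and SAMtools 1.3.1, whereas the study's methods name Bowtie 2 and also MACS. The deposited lists hold for each peak a normalized tag signal per 10000000 tags, made by the authors from all tags of the library. They also hold the authors' tag count of the peak, which in 2 lists is scaled to the input library, and the deposited ratio (fold) of peak over input, which was used only to filter peaks.

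Whole tags were recovered from the normalized signal and the library total, with a largest distance from a whole number of 0.0721. Peaks within 1000 bp of any GENCODE release 44 start site on GRCh37 were summed for each of 20090 protein-coding genes, and the main start site is that of the Ensembl canonical transcript. Log2 ratios are given where both libraries have a peak, with no pseudocount, and at least 2-fold higher was counted. Intervals are exact at 95%, and their calculation was tested on simulated data. The members and lists were chosen with earlier results of these data known. Named are all 10 genes, the extremes of the partner list, and the 2 genes nearest to EGR3 and to KLF2. Of genes that share a peak, the protein-coding ones and KLF2-DT are named. Alternatives changed the scaling, window, start sites, peak threshold, span and GC content, and joined regions were added after the data were seen. Python 3.11.15, NumPy 2.4.6, SciPy 1.17.1 and pysam 0.24.0 were used. With 1 library per treatment no test was run, and precision is limited by the tags per peak.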

Additional observations from a re-analysis of the deposited data

How the results depend on the processing

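No paired analysis was possible because no treatment has more than 1 library in an assay, and for the same reason nothing here measures the spread between cultures. Depth limits the mock H3K4me3 values, which rest on 15 tags at KLF2 and 18 at EGR3. The number of genes at least 2-fold above mock in H3K4me3, 4 with *E. coli* vesicles and 5 with *V. cholerae* vesicles, was 3 and 3 relative to the tags that fall in peaks, 0 and 2 per kb of span, and 0 and 1 after subtraction of the GC median. The median log2 ratios of 0.90 and 1.10 became 0.41 and 0.56, 0.32 and 0.64, and 0.25 and 0.22 under the same 3 settings. Between the vesicle treatments the H3K4me3 median of 0.25 was 0.03 after GC subtraction.

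In FAIRE with *E. coli* vesicles the count of 5 was 2, 3 and 1 under those 3 settings in that order. The median of 3.28 was 0.88, 1.19 and 0.01. With *V. cholerae* vesicles the count of 3 was 2, 2 and 1, and the median of 1.96 was 0.99, 0.87 and 0.56. Between the vesicle treatments the count of 0 was 1 relative to the tags in peaks, and the median of -1.62 was -0.20 relative to the tags in peaks, -0.86 per kb, -0.03 after GC subtraction and -3.08 with peaks at least 8-fold over input, which left 2 genes. The direction turned for EGR2 with *E. coli* vesicles in FAIRE, at -0.19 relative to the tags in peaks and -0.70 after GC subtraction, for IER5 at -0.13 after GC subtraction and for SRF between the vesicle treatments at 0.24 after GC subtraction. The cause was not tested. Windows of 500 bp and 2 kb, the start site at the 5′ end alone and shared peaks left some ratios without a value. Where a value remained, these settings and joined regions kept the direction of every single-gene ratio that was 2-fold or more in either direction. EGR1 had no H3K4me3 ratio against mock with the 500 bp window, as its mock peak ended 702 bp upstream. In FAIRE against mock, IER2 had none with that window or with the 5′ end alone, and EGR3 had none over shared peaks. FAIRE values were missing for most genes at 8-fold over input, and a GC value needs a mock peak.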
